A study of Mus musculus with 24 samples.

Results

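The replication-dependent histone genes were examined in RNA sequencing libraries of mouse neural stem and progenitor cells (NSPCs) with 2, 1 or no intact alleles of Kat6a, the gene of a histone lysine acetyltransferase. Members were the genes whose symbol named a linker histone H1f1 to H1f5 or a numbered gene of the H2ac, H2bc, H3c or H4c series. The rule found 67 of the 26411 genes counted, namely 5 linker histone H1, 18 H2A, 19 H2B, 12 H3 and 13 H4 genes. H2ac25, H2bc27 and H4c16 carried the earlier symbols H2aw, H2bu2 and H4f16. All but 1 of the members were annotated as protein-coding. The exception was H2bc26, a transcribed pseudogene, which had counts but did not enter the tests.

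NSPCs had been grown from the dorsal telencephalon of E12.5 embryos obtained by intercrossing heterozygous mice on a C57BL/6 background. The Kat6a null allele was a germline deletion of 5 exons that brings a stop codon into the catalytic domain, so that no cell of a Kat6a-/- culture had an intact copy. The libraries fell into 6 groups of 4, Kat6a+/+, Kat6a+/- and Kat6a-/- NSPCs cultured for 3 days under proliferating conditions, as neurospheres with FGF2 and EGF, or under differentiating conditions, adherent on poly-L-ornithine and laminin with 1% serum. Each library was labelled with its embryo and litter, with 5 litters in the proliferating and 7 in the differentiating cultures and 6 embryo labels in both. The p-values below measured the spread between these libraries. RNA of proliferating cells had been prepared with another extraction kit than RNA of differentiating cells, so that the effects of kit and condition cannot be told apart. All libraries were made from poly(A)-selected RNA with a stranded kit.

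Canonical histone messages are made in bulk during S phase, when new DNA has to be packed into nucleosomes. Pairs of H2A and H2B and a tetramer of H3 and H4 form the nucleosome core, and H1 binds the linker DNA between cores. Unlike other messages of animal cells, these RNAs normally end in a conserved stem-loop in place of a poly(A) tail. The stem-loop is bound by SLBP, cleavage just after it needs the U7 snRNP and CPSF proteins, and the RNAs are degraded when DNA synthesis stops. Poly(A) selection discards most RNAs that end at the stem-loop, and polyadenylated forms that extend past it are known from differentiating cells. The values below were therefore levels of polyadenylated or carried-over histone RNA and not of total histone message, and the share of each was not tested.

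Library totals ranged from 7826660 to 40838203 counts in proliferating and from 14836869 to 23692125 in differentiating cultures. Counts of all 67 members together came to 618 to 3726 per proliferating and 2850 to 6462 per differentiating library. Between 4 and 25 members had no count in a proliferating library, and between 1 and 8 in a differentiating library. A count of 0 allows up to 3 counts, which came to between 0.0746 and 0.380 CPM (counts scaled to library size) in proliferating and between 0.124 and 0.204 CPM in differentiating libraries, for counting error only. Kat6a itself was measured at 389 ± 16.3 CPM (SD, n = 4) in proliferating Kat6a+/+ and 349 ± 24.1 in Kat6a-/- NSPCs, and at 263 ± 24.2 and 189 ± 42.6 CPM in differentiating cultures. Counts outside the deleted exons remain in such an allele, so that these values check the labels only in part. All 10 NSPC markers listed, among them Sox2, Nes and Pax6, were above 1 CPM. A pair of libraries stood apart. Proliferating Kat6a-/- replicate 4 had the lowest summed level of 24 S phase genes among proliferating libraries, 2154 CPM, and the highest summed level of the histone genes, 130 CPM. Differentiating Kat6a-/- replicate 2 had a summed astrocyte marker level of 5127 CPM and received 4.22% of its group's weight in the differentiating fit, whereas replicate 3 received 69.0%.

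The genes lay in 5 blocks on 4 chromosomes of the mm39 genome. Chromosome 13 held 53 of them, 23 within 21899933–22227846 and 30 within 23715220–24118834. Chromosome 3 held 10 within 96127181–96177448, chromosome 11 held 3 within 58838848–58847656, and H4c16 lay alone on chromosome 6.

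The stem-loop was searched in the 150 bases after each annotated stop codon, because it marks where the mature histone RNA normally ends. Members were searched in all annotated coding transcripts, other genes in the canonical transcript only. The 16-base consensus of the histone stem-loop, a stem around a loop of 4 bases, was read on the coding strand of mm39. It was present in 63 of 67 members (94%) and in 17 of 21507 other protein-coding genes (0.079%), H2ax among them. It began 22 to 59 bases after the stop codon (median 32). It occurred as 8 different 16-base sequences, of which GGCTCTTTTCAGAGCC was the most frequent, with 40 genes. The stem-loops of members on which the results turned are given with 5 bases on each side, 5′ to 3′, with the stem-loop in capitals and its mm39 position.
H1f2 (chr13:23923495-23923510, + strand): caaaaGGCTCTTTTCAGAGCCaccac
H2ac25 (chr11:58845998-58846013, + strand): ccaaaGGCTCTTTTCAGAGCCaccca
H2ac18 (chr3:96153348-96153363, + strand): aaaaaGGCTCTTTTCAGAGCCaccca
H2ac19 (chr3:96147100-96147115, - strand): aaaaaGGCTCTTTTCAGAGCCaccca
H2bc4 (chr13:23868630-23868645, + strand): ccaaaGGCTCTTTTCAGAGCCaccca
H2bc27 (chr11:58840175-58840190, + strand): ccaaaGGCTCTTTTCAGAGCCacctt
H3c15 (chr3:96145801-96145816, - strand): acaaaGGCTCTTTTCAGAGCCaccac
H4c9 (chr13:22225136-22225151, - strand): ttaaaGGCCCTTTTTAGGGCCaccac
H4c8 (chr13:23715628-23715643, + strand): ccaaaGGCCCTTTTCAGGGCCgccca
The first 7 carried the most frequent 16 bases. The stem-loops of H4c9 and H4c8 had other bases in the stem, and H4c9 another loop. H2ac18 and H2ac19 matched in all 26 bases shown.

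H2ac22, H2bc21, H2bc23 and H2bc24 had no match in this window. H2bc21 lay at chromosome 3, 96128435–96131054, and its gene length in the files was 2623 bases, the longest of the members. In 25 of the 63 genes with a match, an annotated transcript went more than 100 bases past the stem-loop. Along the genome, introns included, the annotated transcript of H1f2 ended 840, that of H2ac25 1643, that of H2bc4 9518 and that of H4c9 330 bases past it. The annotated transcripts of H2ac18 and H2ac19 ended 35 bases past it. Among the 25 genes with a longer annotated transcript, the median level over all libraries was 0.671 CPM and 10 genes exceeded 1 CPM. Among the other 38 genes the median was 0.318 CPM and 4 genes exceeded 1 CPM. Of the 4 genes without a match, 3 exceeded 1 CPM. These levels are a description, since longer genes also collect more counts. The ends came from GENCODE transcripts, whereas the reads were counted on RefSeq gene models. Those models were 508 bases long for H2ac25, 725 for H1f2 and 403 for H4c9. Reads from the longer ends of such genes may not have been counted.

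Histone promoters share short elements that differ between the classes. RefSeq promoter sequences of GRCm38.p6, from 250 bases before to 50 bases after the annotated start, were found for 61 of 67 members and searched on both strands. The octamer ATTTGCAT, a binding motif of OCT1, occurred in 7 of 18 H2A and 7 of 16 H2B promoters and in none of the H1, H3 and H4 promoters, against 1.7% of 32789 other promoters. CCAAT, the motif of NF-Y, occurred in all H1, H2A, H2B and H3 promoters found but in only 3 of 12 H4 promoters, and in 37.3% of the others. TATAAA occurred in 57.4% of member promoters and 13.5% of the others. AAACACA, known from H1 promoters, occurred in 4 of 5 H1 promoters and 7.17% of the others. The promoters of H2ac18, called higher in differentiating Kat6a-/- cultures, and of the neighbours H2bc27 and H2ac25, called lower, are shown. The call of H2ac25 was the least stable of the 3, as given with the comparison. Capitals mark CCAAT and also TATAAA and the octamer, on either strand.
H2ac18 (chr3:96245247-96245546, + strand): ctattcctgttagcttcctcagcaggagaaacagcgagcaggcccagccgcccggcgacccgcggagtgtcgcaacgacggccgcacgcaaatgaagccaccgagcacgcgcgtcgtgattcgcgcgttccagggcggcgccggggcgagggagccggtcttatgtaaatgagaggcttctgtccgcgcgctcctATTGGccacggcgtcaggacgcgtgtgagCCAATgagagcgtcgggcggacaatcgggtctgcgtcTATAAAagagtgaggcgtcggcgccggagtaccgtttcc
H2ac25 (chr11:58954435-58954734, + strand): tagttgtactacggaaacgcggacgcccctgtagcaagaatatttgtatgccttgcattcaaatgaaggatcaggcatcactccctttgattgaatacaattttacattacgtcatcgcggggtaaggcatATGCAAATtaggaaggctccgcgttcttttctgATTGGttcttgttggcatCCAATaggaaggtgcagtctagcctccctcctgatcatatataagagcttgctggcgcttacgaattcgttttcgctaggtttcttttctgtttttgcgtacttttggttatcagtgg
H2bc27 (chr11:58948661-58948960, + strand): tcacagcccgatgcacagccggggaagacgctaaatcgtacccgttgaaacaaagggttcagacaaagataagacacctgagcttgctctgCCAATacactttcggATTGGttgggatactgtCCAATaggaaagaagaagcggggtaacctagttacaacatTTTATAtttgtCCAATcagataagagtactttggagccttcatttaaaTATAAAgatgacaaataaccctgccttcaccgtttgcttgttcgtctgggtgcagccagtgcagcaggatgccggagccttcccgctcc
CCAAT was found in all 3, the octamer in that of H2ac25 and TATAAA in those of H2ac18 and H2bc27. A match is a description of the letters in this window.

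The counting of reads that fit several genes bears on this family. Of the 75-base stretches in the mm39 transcripts of a member, a median of 36.2% also occurred in another member, and 27 of 67 members shared more than 50%. H2ac19 shared all its stretches, 100%, with H2ac18. H2ac23 shared 93.1%, H3c15 62.6% and H4c8 42.4% with other members, whereas H1f2 shared 6.66%, H2bc4 9.07%, H2bc27 11.2%, H2ac25 0.82% and H2bc21 0. The setting used for reads that fit several places is not given in the sources used here, nor is the strand setting. Levels of H2ac18 and H2ac19 are therefore uncertain as single genes. H1f4 overlapped H2bc6 and H2bc4 overlapped H2ac6 in the annotation, so that these are uncertain too.

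A few genes carried most of the signal. Averaged over 24 libraries, 17 members exceeded 1 CPM, 6 exceeded 10 CPM and 50 lay under 1 CPM. The 6 were H2bc4 (32.8 CPM), H1f2 (32.3), H2ac25 (19.0), H2bc21 (15.3), H2ac18 (13.2) and H2ac19 (11.1). Together they took 60.2% to 80.4% of all member counts in proliferating and 71.0% to 75.3% in differentiating libraries. Per length, H2ac25 and H4c9 were the highest of the 10 most abundant members in proliferating Kat6a+/+ NSPCs, at 26.2 and 26.0 CPM per kb. In differentiating Kat6a+/+ NSPCs H1f2 and H2bc4 were the highest, each at 56.6 CPM per kb, and H2ac25 followed at 52.7. H2bc21, a long gene, stood at 4.17 and 9.02 CPM per kb in the respective conditions.

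**Figure D1:**
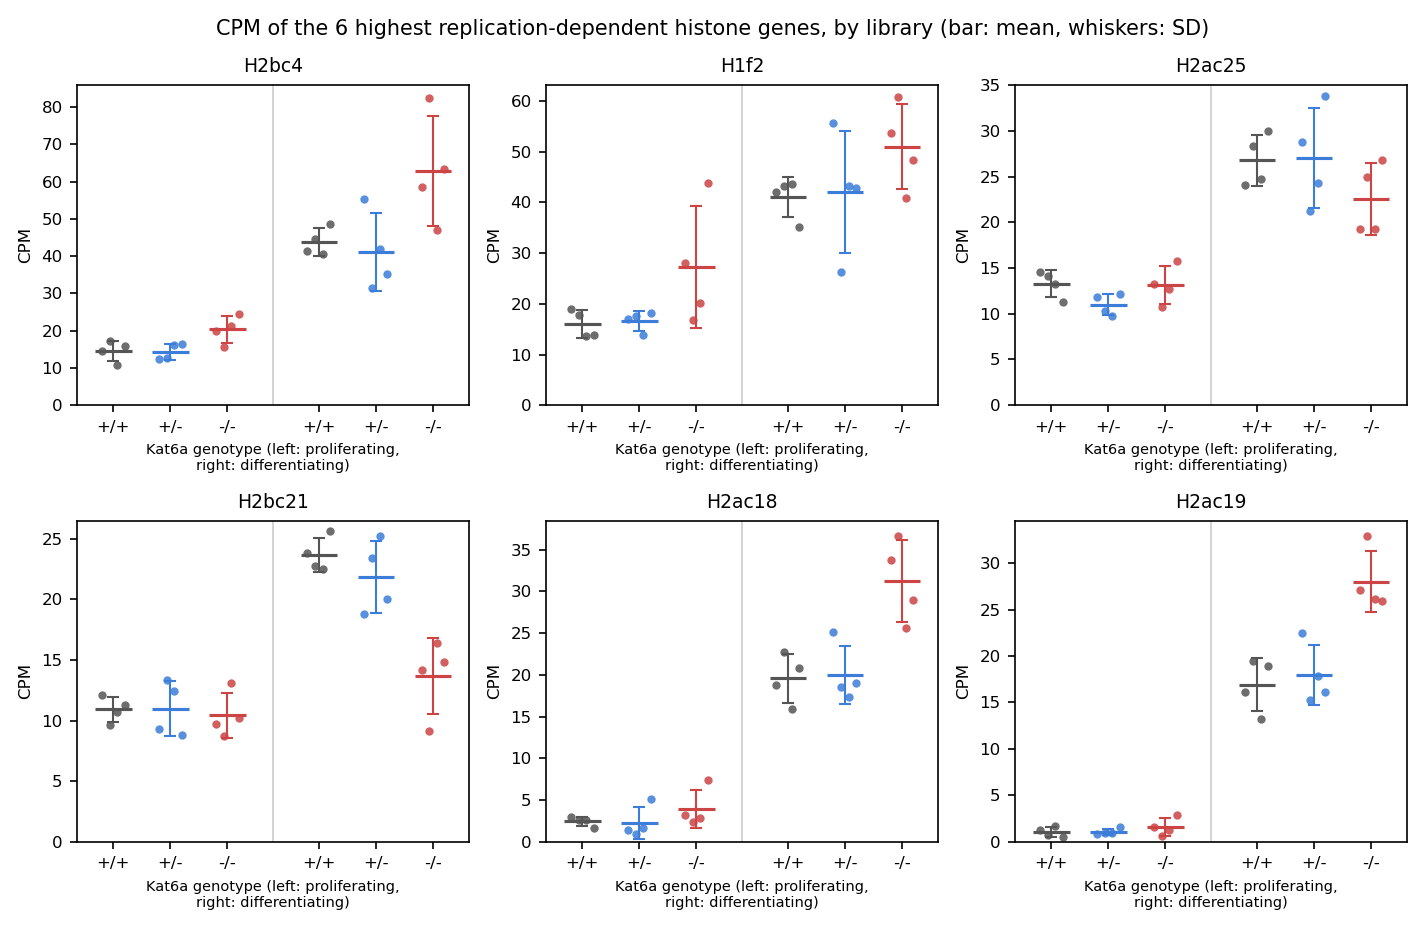
CPM of the 6 most abundant histone genes in each library (points), by Kat6a genotype and condition, with the mean (bar) and SD (whiskers) of 4 libraries. In Kat6a+/+ cultures every differentiating library lay above every proliferating one for all 6 genes, and in differentiating cultures H2bc21 was lower and H2ac18 and H2ac19 were higher in each Kat6a-/- than in each Kat6a+/+ library.

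The linker histone signal came almost wholly from H1f2 (gene ID 50708, chromosome 13, 23922791–23924350), 1 of the somatic H1 subtypes. In proliferating cultures H1f2 stood at 19.1, 17.8, 13.6 and 13.9 CPM in Kat6a+/+ replicates 1 to 4, at 17.0, 17.7, 13.8 and 18.2 in Kat6a+/- and at 28.0, 16.8, 20.2 and 43.9 in Kat6a-/- libraries. In differentiating cultures the values were 42.1, 43.3, 43.6 and 35.3 CPM in Kat6a+/+, 55.7, 26.3, 43.1 and 42.8 in Kat6a+/- and 53.7, 60.9, 41.0 and 48.4 in Kat6a-/- libraries. Every differentiating Kat6a+/+ library was above every proliferating Kat6a+/+ library, while the genotypes overlapped within each condition. H1f4, another somatic H1 gene, was lower, at 0.572, 0.355, 0.198 and 0.375 CPM in proliferating and 1.14, 0.913, 1.10 and 1.45 in differentiating Kat6a+/+ libraries. In differentiating Kat6a-/- libraries H1f4 read 1.84, 1.52, 1.55 and 1.79 CPM, all above the Kat6a+/+ libraries. The differentiating Kat6a+/- libraries read 1.77, 1.12, 1.48 and 2.26 CPM and overlapped both. H1f3 ranged from 0.0960 to 0.651 CPM over proliferating and from 0.132 to 1.26 over differentiating libraries, with all genotypes overlapping in the latter.

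Among the H2A genes, which encode the partner of H2B in the core, H2ac25 (gene ID 319162, chromosome 11, 58845511–58847656) led in proliferating cultures. Its values were 14.5, 14.2, 13.3 and 11.2 CPM in Kat6a+/+, 11.8, 10.3, 9.72 and 12.2 in Kat6a+/- and 13.3, 10.8, 12.7 and 15.8 in Kat6a-/- libraries. Under differentiating conditions they were 24.1, 28.3, 24.7 and 30.0 CPM in Kat6a+/+, 28.8, 21.2, 24.3 and 33.9 in Kat6a+/- and 19.2, 24.9, 19.2 and 26.8 in Kat6a-/- libraries. The differentiating Kat6a-/- values overlapped those of Kat6a+/+ and reached lower. H2ac18, on chromosome 3 at 96152813–96153398, read 2.96, 2.61, 2.58 and 1.62 CPM in proliferating Kat6a+/+ and 3.23, 2.41, 2.81 and 7.36 in Kat6a-/- libraries. In differentiating cultures it read 18.8, 22.8, 16 and 20.9 CPM in Kat6a+/+, 25.1, 18.5, 17.3 and 19.0 in Kat6a+/- and 33.7, 36.6, 25.6 and 28.9 in Kat6a-/- libraries, where the Kat6a-/- values lay above all others of that condition. Its near-identical neighbour H2ac19, at 96147065–96147592, read 1.24, 0.770, 1.68 and 0.5 CPM in proliferating and 16.1, 19.4, 13.2 and 18.9 in differentiating Kat6a+/+ libraries, and 27.1, 32.9, 26.1 and 25.9 in differentiating Kat6a-/- libraries. The latter again exceeded every Kat6a+/+ library.

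H2bc4 (gene ID 68024, chromosome 13, 23867631–23878163) was the most abundant H2B gene. It read 14.5, 17.2, 10.9 and 15.9 CPM in proliferating Kat6a+/+, 12.3, 12.7, 16.1 and 16.4 in Kat6a+/- and 19.9, 15.7, 21.2 and 24.5 in Kat6a-/- libraries. Under differentiating conditions H2bc4 read 41.3, 44.6, 40.6 and 48.7 CPM in Kat6a+/+, 55.4, 31.5, 41.9 and 35.3 in Kat6a+/- and 58.6, 82.5, 47.0 and 63.3 in Kat6a-/- libraries. Here the Kat6a-/- libraries overlapped Kat6a+/+ in both conditions. H2bc21, by contrast, read 12.1, 9.65, 10.7 and 11.2 CPM in proliferating Kat6a+/+ and 9.69, 8.74, 13.1 and 10.2 in Kat6a-/- libraries. In differentiating cultures it read 23.8, 22.7, 22.5 and 25.6 CPM in Kat6a+/+, 18.8, 23.4, 25.2 and 20.1 in Kat6a+/- and 14.2, 9.17, 16.4 and 14.9 in Kat6a-/- libraries, all the last below the others. H2bc27 (gene ID 78303, chromosome 11, 58838848–58840361), next to H2ac25, behaved likewise, with 5.70, 4.46, 6.05 and 5.63 CPM in differentiating Kat6a+/+, 5.61, 6.80, 7.13 and 5.98 in Kat6a+/- and 3.13, 2.25, 2.98 and 4.08 in Kat6a-/- libraries. In proliferating cultures it read 1.82, 2.37, 2.08 and 2.12 CPM in Kat6a+/+, 2.30, 1.88, 2.89 and 1.44 in Kat6a+/- and 0.780, 0.380, 2.59 and 0.196 in Kat6a-/- libraries. Of the latter 4, replicate 3 lay above the Kat6a+/+ range and the others below it.

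H3 and H4 genes were sparse. H3c15, on chromosome 3 at 96145424–96146443, read 0.448, 0.474, 0.0991 and 0.5 CPM in proliferating and 7.49, 8.86, 6.90 and 10.1 in differentiating Kat6a+/+ libraries, and 7.20, 18.1, 7.26 and 12.8 in differentiating Kat6a-/- libraries. H3c14, with which it shares much sequence, read 0.597, 0.770, 0.793 and 1.50 CPM in proliferating and 5.21, 6.12, 3.43 and 6.17 in differentiating Kat6a+/+ libraries, and 6.73, 12.3, 5.54 and 8.99 in differentiating Kat6a-/- libraries. Both were higher in every differentiating than in every proliferating Kat6a+/+ library, and the genotypes overlapped. H3c4 read 0.380, 0.537, 0.667 and 0.455 CPM in differentiating Kat6a+/+, 1.24, 0.660, 1.04 and 0.598 in Kat6a+/- and 1.09, 0.943, 0.952 and 0.83 in Kat6a-/- libraries, the last above the first without overlap. H4c9 (gene ID 319158, chromosome 13, 22224806–22225532) held most of the H4 signal and went the other way between conditions, from 8.90, 11.0, 11.2 and 10.9 CPM in proliferating to 6.14, 7.09, 7.24 and 6.70 in differentiating Kat6a+/+ libraries. In Kat6a-/- libraries it read 10.4, 8.87, 10.0 and 5.89 CPM under proliferating and 10.9, 6.39, 7.02 and 6.69 under differentiating conditions. H4c12 read 0.497, 1.01, 1.09 and 0.375 CPM in proliferating and 1.63, 3.22, 1.86 and 2.23 in differentiating Kat6a+/+ libraries, again without overlap. H4c8 read 0.326, 0.322, 0.619 and 0.869 CPM in differentiating Kat6a+/+, 1.24, 1.65, 1.26 and 0.797 in Kat6a+/- and 2.92, 1.47, 2.50 and 1.59 in Kat6a-/- libraries. No Kat6a-/- value of H4c8 came as low as a Kat6a+/+ value, and proliferating libraries of all genotypes stayed at or below 0.446 CPM.

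**Figure D2:**
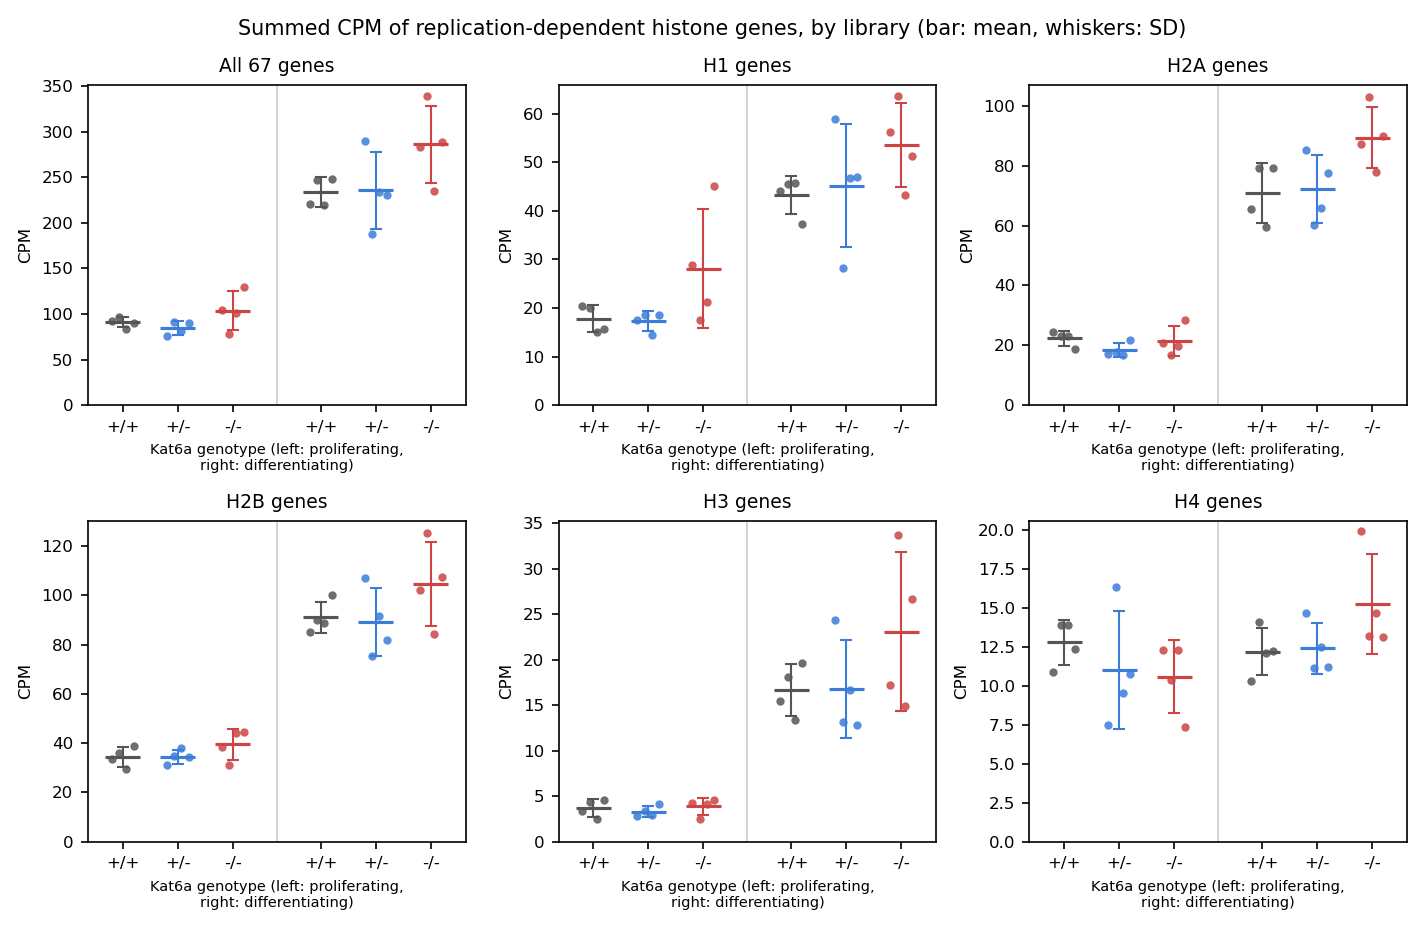
Summed CPM of each histone class and of all 67 members in each library, by group, with the mean and SD of 4 libraries. The sum of all members averaged 91.0 CPM in proliferating and 234 CPM in differentiating Kat6a+/+ libraries, and the H4 sum was about level at 12.8 and 12.2 CPM.

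Which histone RNAs changed between the culture conditions was examined first in Kat6a+/+ NSPCs. The summed histone RNA of these libraries was higher under differentiating conditions in 4 of the 5 classes, by more than the SD of either group. Summed over all 67 members, low ones included, it averaged 91.0 ± 5.58 CPM in proliferating and 234 ± 16 CPM in differentiating cultures (SD, n = 4), a ratio of 2.57. The H3 sum had the largest ratio, 4.49 (3.71 ± 0.989 and 16.7 ± 2.80 CPM), followed by H2A with 3.18 (22.3 ± 2.45 and 70.8 ± 9.97 CPM). The ratio was 2.65 for H2B (34.4 ± 3.93 and 91.1 ± 6.34 CPM) and 2.42 for H1 (17.8 ± 2.80 and 43.1 ± 3.91 CPM). The H4 sum, 12.8 ± 1.44 and 12.2 ± 1.53 CPM, differed by less than 1 SD (ratio 0.954). In these bulk libraries, fewer cells of a type and less RNA per cell cannot be told apart.

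Of the 37 members with enough counts to be tested, 28 (75.7%) were called by limma-voom at a false discovery rate (FDR) under 0.05 across 13590 genes, against 72.9% of all genes tested. Thus the share called was near the background. In differentiating cultures 25 members were higher and 3 lower, and of all genes 36.7% were higher and 36.2% lower. The median log2 fold-change of the 37 members was 1.55, against 0.017 over all genes. Some of these genes, H3c13 and H4c11 among them, were near 0 in proliferating cultures and passed the filter only through differentiating libraries, in which they were high. The split of directions, here and by class, and the median therefore describe the tested genes and are no evidence about the family.

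By class, 2 of 4 tested H1 genes rose and 1 fell, 6 of 10 H2A genes rose and 1 fell, 10 of 13 H2B genes rose, 3 of 5 H3 genes rose, and 4 of 5 H4 genes rose and 1 fell. The 3 largest rises were those of H3c15 (log2 fold-change 4.40, SE 0.60, limma FDR 1.19e-06), H2ac19 (3.99, SE 0.35, limma FDR 2.26e-09) and H3c13 (3.76, SE 0.72, limma FDR 8.83e-05). H3c15 did not pass the filter when proliferating libraries were fitted alone. Its levels in proliferating Kat6a+/+ libraries were 0.5 CPM or lower, so that its fold rests on low counts. H3c13, a further H3 gene of the chromosome 3 cluster, read 0.0249, 0.118, 0 and 0 CPM in proliferating and 0.652, 0.698, 0.667 and 1.28 in differentiating Kat6a+/+ libraries, so that its fold rests on counts near 0 and is no bound. H2ac18 rose by 2.88 (SE 0.31, limma FDR 3.61e-08), and the leading H2B and H1 genes H2bc4 and H1f2 rose by 1.58 (SE 0.19, limma FDR 2.79e-07) and 1.26 (SE 0.23, limma FDR 4.70e-05) on the log2 scale. H2ac25 rose by 0.95 and H2bc21 by 1.08. The 3 genes that fell were H1f5 (−1.34, SE 0.58, limma FDR 0.0440), H2ac8 (−1.30, SE 0.57, limma FDR 0.0442) and H4c9 (−0.56, SE 0.19, limma FDR 0.0124). H1f5 read 0.448, 1.01, 0.595 and 0.875 CPM in proliferating and 0.0543, 0.430, 0.429 and 0.248 in differentiating Kat6a+/+ libraries, and H2ac8 read 0.547, 0.83, 1.09 and 0.750 CPM in the former and 0.326, 0.0537, 0.381 and 0.621 in the latter. Both calls lay close to the threshold, and in other processing H1f5 kept its call in 13 of 31 settings and H2ac8 in 14 of 33.

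**Figure D3:**
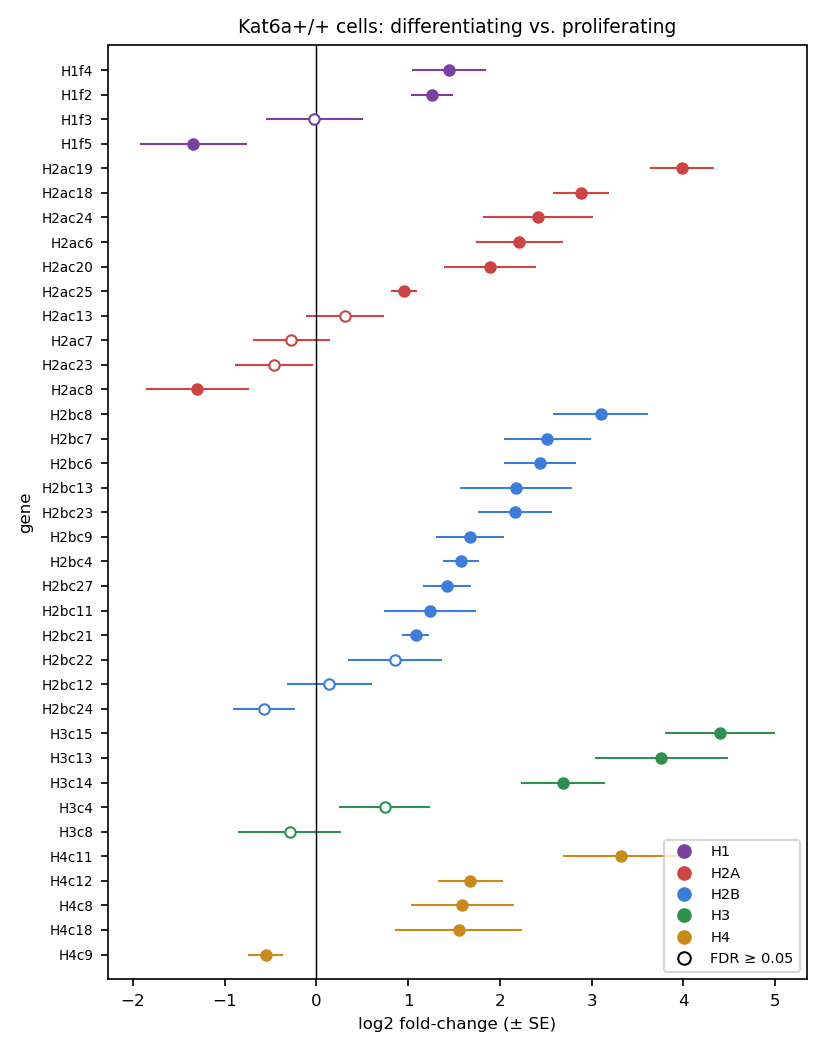
Log2 fold-change of each tested histone gene in Kat6a+/+ differentiating vs. proliferating NSPCs, by class, with bars for the SE and filled points for FDR under 0.05. Rises reached 4.40 for H3c15, which had few counts in proliferating libraries, and H1f5, H2ac8 and H4c9 were the 3 genes that fell.

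Genes that work with the histones in S phase went the other way between the conditions. All 24 listed S phase genes fell in differentiating Kat6a+/+ NSPCs, with a median log2 fold-change of −1.87, and their summed level was 4183 ± 213 CPM in proliferating and 1205 ± 224 in differentiating cultures, a ratio of 0.288. Rrm2, a subunit of ribonucleotide reductase, fell by 2.12 on the log2 scale (limma FDR 2.16e-08) and Mcm6, a subunit of the replicative helicase, by 1.83 (limma FDR 2.14e-07). Of 20 genes that make or process histone messages, 16 fell and 2 rose. Slbp, the stem-loop binding protein, which is on both lists and named here for its role and not for its level, fell by 1.21 (limma FDR 7.33e-10), from 88.9 ± 3.14 to 38.6 ± 2.95 CPM. Of 17 histone chaperones 14 fell and 1 rose. Replication-independent histones, which are expressed outside S phase and usually polyadenylated, were mixed, with 4 of 12 tested higher and 5 lower, and their summed level differed little, 2043 CPM against 1863. H1f0, the linker histone of resting cells, fell by 0.93 (limma FDR 1.43e-05). H3f3b, which encodes H3.3, stood at 540 ± 15.2 and 546 ± 54.5 CPM.

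The RNAs of 147 small non-coding RNA genes, which mostly lack a poly(A) tail, were summed as well. They came to 69.7 ± 4.74 CPM in proliferating and 27.7 ± 4.14 CPM in differentiating Kat6a+/+ libraries, a ratio of 0.397. Such RNAs are short and may also be lost at the size selection of a library, so that this sum need not follow the carry-over of histone RNAs, whose part in the histone values was not tested. Astrocyte markers were also higher in differentiating cultures, with 5 of 7 tested called and none lower. Their summed level was 228 ± 16.9 and 1291 ± 311 CPM. Of the other cell types listed, endothelial markers went from 4.37–9.24 to 45.7–72.0 CPM for 5 genes together, nearly all of it Kdr, which ranged from 3.25 to 8.17 and from 45.0 to 71.7 CPM. The further endothelial markers Pecam1, Cdh5, Cldn5 and Tek each had a mean under 1 CPM in both conditions. Meningeal and mesenchymal markers went from 20.4–26.4 to 32.1–65.0 CPM, with 2 of 4 tested higher. Other lists had lower or similar mean sums in differentiating cultures. Neuron markers went from 1047 to 636 CPM and oligodendrocyte lineage markers from 2517 to 1282 CPM. NSPC markers stood at 8373 and 8208 CPM, and microglial markers at 1.32 and 0.744 CPM. The part of these cells in the histone result was not tested.

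**Figure D4:**
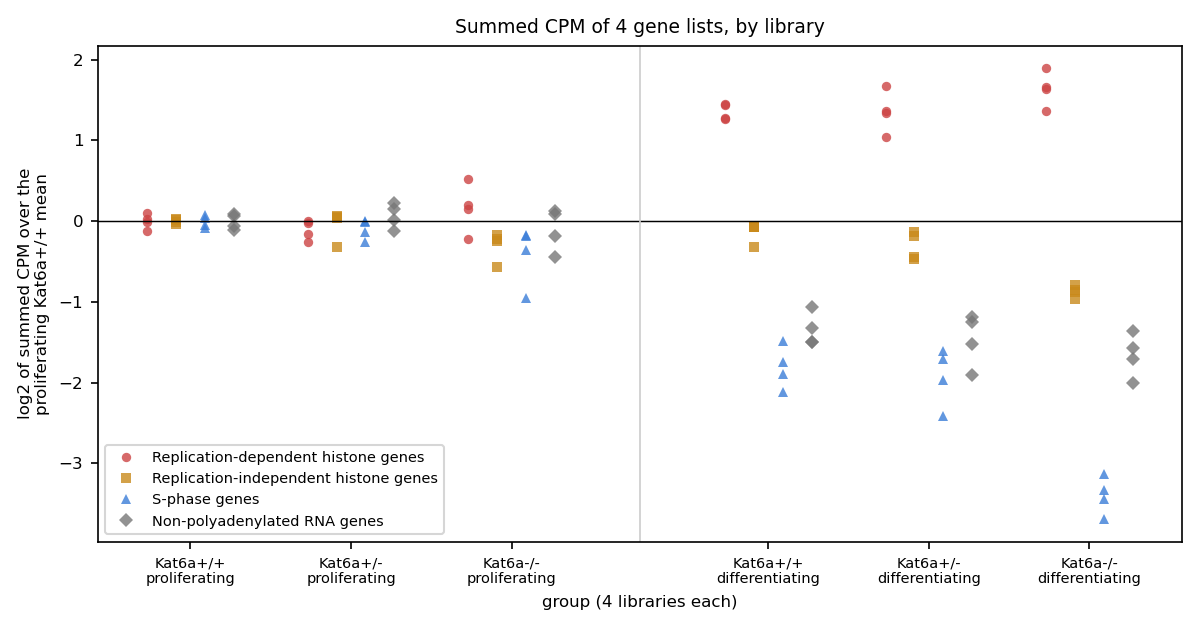
Log2 of the summed CPM of the histone genes, of replication-independent histones, of S phase genes and of small non-coding RNA genes in each library (points), relative to the mean of the proliferating Kat6a+/+ libraries. S phase sums went from 3951–4408 CPM in proliferating to 963–1493 CPM in differentiating Kat6a+/+ libraries while histone sums were higher in the latter.

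The effect of losing Kat6a was examined within each condition. In proliferating NSPCs the histone sum averaged 104 ± 21.2 CPM in Kat6a-/- and 91.0 ± 5.58 CPM in Kat6a+/+ libraries. The Kat6a-/- libraries read 104, 78.3, 101 and 130 CPM and the Kat6a+/+ libraries 92.6, 97.2, 83.8 and 90.2 CPM, so that the groups overlapped. The H1 sum was 28.1 ± 12.2 against 17.8 ± 2.80 CPM (ratio 1.58) and the H4 sum 10.6 ± 2.32 against 12.8 ± 1.44 CPM (ratio 0.83). H2A, H2B and H3 sums differed by 1.15-fold or less.

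In proliferating cultures 12 members passed the filter and 55 did not. Of the 12, 4 (33.3%) were called at an FDR under 0.05, against 30% of 12276 genes. H2bc4 rose, with a log2 fold-change of 0.52 (SE 0.15, limma FDR 0.0167), and so did H1f2 with 0.68 (SE 0.22, limma FDR 0.0315). H2ac23 fell by 1.59 (SE 0.52, limma FDR 0.0337) and H2bc27 by 1.42 (SE 0.48, limma FDR 0.0378). H2ac23, an H2A gene that shares nearly all of its sequence with H2ac24, read 1.42, 1.13, 0.694 and 1.62 CPM in Kat6a+/+, 0.396, 1.88, 1.45 and 0.672 in Kat6a+/- and 0.334, 0.380, 0.432 and 0.393 in Kat6a-/- libraries. It was the only 1 of the 12 tested members whose Kat6a-/- libraries did not overlap those of Kat6a+/+, and none of the 12 lay wholly above. Of all genes tested, 13.7% lay wholly above and 17.7% wholly below. The calls depended on single libraries. None of the 12 genes was called without Kat6a-/- replicate 4 or without Kat6a+/+ replicate 1, and 1 was called without Kat6a+/+ replicate 2 or Kat6a-/- replicate 1. The share of all genes called without these libraries is not given here. Of 21 other settings H2bc4 kept its call in 17, H1f2 in 14, H2ac23 in 12 and H2bc27 in 10. The fall of H2bc27, for which Kat6a-/- replicate 3 lay above the Kat6a+/+ range, was not called by edgeR (FDR 0.155) or DESeq2 (FDR 0.132), nor when litter was a fixed term (FDR 0.228) or the replicate block was used (FDR 0.0765). H1f2 was highest in Kat6a-/- replicate 4, at 43.9 CPM, without which its log2 fold-change was 0.40. The genes not called were H2bc6 (0.96, limma FDR 0.0507), H2ac18 (0.49), H2ac19 (0.44), H3c14 (0.32), H2bc24 (0.15), H2ac25 (0.01), H2bc21 (−0.08) and H4c9 (−0.30). In the same comparison 12 of 24 S phase genes fell (median −0.32) and none rose. That count also depended on single libraries, with 3 called without Kat6a+/+ replicate 1, 6 without Kat6a+/+ replicate 2 or 3 and 19 without Kat6a-/- replicate 3, all lower. Astrocyte markers were higher, 4 of 6 tested, with a summed level of 419 to 554 CPM in Kat6a-/- and 206 to 245 CPM in Kat6a+/+ libraries. Of 10 NSPC markers 2 were higher and 3 lower, and of 8 tested neuron markers 1 was higher and 3 lower. Of 6 tested oligodendrocyte lineage markers 1 was higher and none lower. The microglial markers were near 0, at 6.28 to 8.23 against 1.25 to 1.39 CPM for 6 genes together, nearly all of it P2ry12. The part of these cell types in the histone values was not tested.

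In differentiating NSPCs the histone sum averaged 286 ± 42.5 CPM in Kat6a-/- and 234 ± 16 CPM in Kat6a+/+ libraries, a ratio of 1.22. The Kat6a-/- libraries read 283, 339, 235 and 288 CPM and the Kat6a+/+ libraries 221, 247, 219 and 249 CPM. All Kat6a-/- libraries but replicate 3 were thus above the range of Kat6a+/+. Class sums had ratios of 1.39 for H3, 1.26 for H2A, 1.25 for H4, 1.24 for H1 and 1.15 for H2B. For H2A the sums were 89.4 ± 10.3 and 70.8 ± 9.97 CPM, and for H3 23.1 ± 8.70 and 16.7 ± 2.80 CPM.

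In this condition 38 members were tested and 29 were below the filter. Of the 38, 8 (21.1%) were called, 5 higher and 3 lower in Kat6a-/- NSPCs, against 54.4% of 13339 genes. The share called was thus smaller among the tested histone genes than among all genes. These shares were not matched for expression level, and many of the tested members were low, so that the difference is a description. Of all genes 26.7% were higher and 27.7% lower. None of 3 tested H1, 4 of 10 H2A, 2 of 15 H2B, 1 of 5 H3 and 1 of 5 H4 genes were called. The median log2 fold-change of the 38 genes was 0.18, against −0.016 over all genes. Some of these genes, H4c8, H2ac7 and H3c4 among them, were low in Kat6a+/+ libraries. They passed the filter through libraries of the other genotypes, in which they were higher. The split of directions and the median therefore describe the tested genes and are no evidence about the family.

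The largest rise among the called genes was that of H4c8, at a log2 fold-change of 2.10 (SE 0.30, limma-trend FDR 0.000103). H2ac7, an H2A gene that read 0.489, 0.698, 0.238 and 0.248 CPM in Kat6a+/+ and 0.680, 0.943, 0.774 and 0.701 in Kat6a-/- libraries, rose by 0.86 (SE 0.31, limma FDR 0.0327), and H3c4 rose by 0.83 (SE 0.26, limma FDR 0.0186). The neighbours H2ac19 and H2ac18 rose by 0.76 (SE 0.13, limma FDR 0.000484) and 0.59 (SE 0.14, limma FDR 0.00306). As their reads cannot be assigned to 1 of them with certainty, these are not independent. H2bc27 fell by 0.87 (SE 0.14, limma FDR 0.000229), H2bc21 by 0.60 (SE 0.11, limma FDR 0.000472) and H2ac25 by 0.34 (SE 0.11, limma FDR 0.0241). H2bc27 and H2ac25 are 2 of the 3 members on chromosome 11. The genes of highest level, H2bc4 and H1f2, were not called (0.28, limma FDR 0.115 and 0.09, limma FDR 0.645), nor were H3c15 (0.05), H3c14 (0.40) and H4c9 (0.17). Plain means of CPM gave larger ratios for some of these genes than the weighted fit, in which Kat6a-/- replicate 3 weighed most. Without weights, 5 members were called and the median log2 fold-change was 0.36, against 0.18 with them. Without Kat6a-/- replicate 2, 8 members were called higher and 8 lower, and the median was −0.02. Without replicate 1 or replicate 3, none was called higher and 2 were called lower. The share of all genes called under these settings is not given here, so these counts are no result about the histone genes.

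In Kat6a-/- libraries 6 of the 38 tested members lay wholly above the Kat6a+/+ range, H1f4, H2ac18, H2ac19, H2bc9, H3c4 and H4c8, and 2 wholly below, H2bc21 and H2bc27. Over all genes tested 12.3% lay wholly above and 14.5% wholly below. The limit set by the filter holds for these counts of members too. The calls differed in stability over 22 other settings. H2bc21 and H2bc27 kept theirs in 21, the exception being litter as a fixed term (FDR 0.0502 and 0.0642), under which no member was called. H4c8, H2ac18 and H2ac19 kept theirs in 19 and lost them there and without Kat6a-/- replicate 1 or 3. H2ac25 kept its call in 15. It was not called by edgeR (FDR 0.279), by DESeq2 (FDR 0.303), without weights (FDR 0.263) or without the filter (FDR 0.106), and its log2 fold-change was −0.13 without Kat6a-/- replicate 3. H2ac7 and H3c4 kept theirs in 14 each. By edgeR and DESeq2 neither was called (FDR 0.142 and 0.156 for H2ac7, 0.0659 and 0.0752 for H3c4), and H3c4 was not called with the replicate block either (FDR 0.0582).

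**Figure D5:**
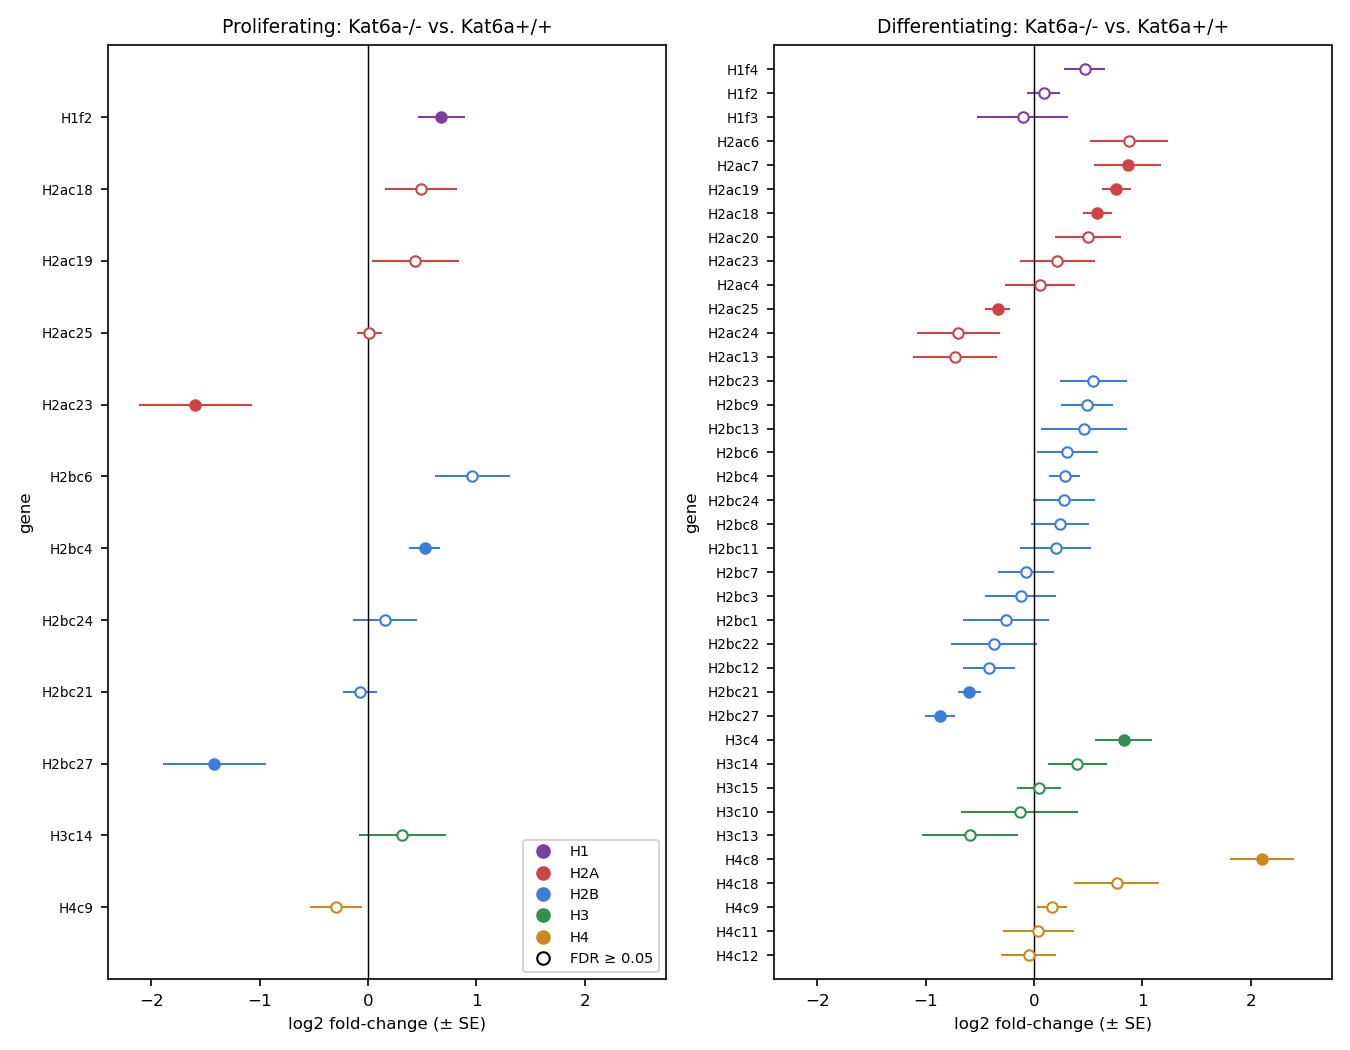
Log2 fold-change in Kat6a-/- vs. Kat6a+/+ NSPCs for each histone gene tested, in proliferating and in differentiating cultures, with bars for the SE and filled points for FDR under 0.05. H2bc27 was called lower in both conditions, in proliferating cultures in only 10 of 21 other settings, and the 3 largest rises called under differentiating conditions were those of H4c8, H2ac7 and H3c4.

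S phase genes, genes of histone message production and replication-independent histones were examined in the same differentiating Kat6a-/- libraries. All 24 S phase genes fell (median log2 fold-change −1.88), with summed levels of 324 to 476 CPM in Kat6a-/- and 963 to 1493 CPM in Kat6a+/+ libraries. Rrm2 fell by 3.01 (limma FDR 2.59e-06) and Mcm6 by 1.01 (limma FDR 0.000241). Of the 20 genes of histone message production 12 fell and none rose, with 5 called without Kat6a-/- replicate 1, 4 without replicate 3 and 2 with litter as a fixed term. Slbp fell by 0.72 (limma FDR 6.67e-05). Of 12 replication-independent histones 11 fell and 1 rose, with a summed level of 1115 ± 55.3 against 1863 ± 149 CPM. H1f0 fell by 1.52 (SE 0.09, limma FDR 2.49e-06) in differentiating and by 0.87 (limma FDR 0.00139) in proliferating Kat6a-/- NSPCs. H3f3b fell by 0.59 (limma FDR 8.60e-05), and Macroh2a1, which encodes a large H2A variant, by 0.83 (limma FDR 7.75e-06). H2ax, a variant whose gene carries the stem-loop and which is named here for that reason, fell by 1.97 (limma FDR 2.49e-06). The 147 small non-coding RNA genes summed to 22.3 ± 4.06 CPM in Kat6a-/- and 27.7 ± 4.14 CPM in Kat6a+/+ libraries. Of 7 meningeal and mesenchymal markers 4 were tested and all 4 were higher, whose list had summed levels of 42.9 to 272 CPM against 32.1 to 65.0 CPM, led by Col1a1 at 106 ± 71.4 against 6.11 ± 6.68 CPM. Of 7 tested astrocyte markers 1 was higher and 2 lower, with summed levels of 791 to 5127 against 983 to 1612 CPM. Endothelial markers summed to 10.5 to 36.3 against 45.7 to 72.0 CPM, again nearly all Kdr. The 10 NSPC markers summed to 9346 to 13834 against 7317 to 9329 CPM, with 3 called higher and 5 lower. Of 9 tested neuron markers 1 was higher and 5 lower, with summed levels of 466 to 776 against 545 to 739 CPM. Of 6 tested oligodendrocyte lineage markers 1 was higher and 4 lower, with sums of 689 to 1215 against 1185 to 1402 CPM. The study reports fewer cells with a neuronal marker protein in differentiating Kat6a+/- and Kat6a-/- cultures than in Kat6a+/+. Its authors therefore read RNA differences in that condition as a mix of cell composition and direct effects. The part of other cells in the histone values was not tested.

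In Kat6a+/- NSPCs no member was called in either condition, where 0% of all genes were called. In proliferating cultures the histone sum was 84.6 ± 7.28 CPM, and 1 of the 12 tested members had an unadjusted p under 0.05 by limma, H2ac25 with −0.30, beside 912 of all genes. edgeR and DESeq2 called none either. In differentiating cultures the sum was 236 ± 42.0 CPM, against 234 ± 16 in Kat6a+/+. An unadjusted p under 0.05 was found for 5 of 38 tested members, beside 1926 of all genes, and edgeR and DESeq2 again called none. These were H4c8 (1.17), H2bc24 (1.11), H3c4 (0.85) and H1f4 (0.52) with positive and H2bc3 (−1.03) with negative log2 fold-changes, named after their values were seen. The Kat6a+/- and Kat6a-/- comparisons share the Kat6a+/+ libraries, so that values on the same side in both are not independent. The lower number of cells with a neuronal marker protein, reported by the study, also concerns differentiating Kat6a+/- cultures. Its part in these values was not tested.

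Whether the effect of Kat6a loss differed between the conditions was tested by the interaction in all 24 libraries. None of 37 members was called by limma-voom, against 13.9% of 13590 genes, 6.36% with a higher and 7.58% with a lower effect in differentiating cultures. Of the 37, 4 had an unadjusted p under 0.05, beside 4051 of all genes, and edgeR and DESeq2 each called 2. The share of all genes called by edgeR and DESeq2 is not given here. H2bc21 came closest, with an effect lower by 0.75 in differentiating cultures (SE 0.25, limma FDR 0.0503). The next were H2ac13 (2.13, SE 0.78, limma FDR 0.0702), H2ac7 (1.40, FDR 0.134), H1f4 (1.35, FDR 0.157) and H2ac23 (1.42, FDR 0.196). H2ac13 read 0.572, 0.651, 0.793 and 0.875 CPM in proliferating Kat6a+/+ and 0.111, 0, 0.216 and 0.0981 in Kat6a-/- libraries, and 0.815, 1.07, 0.667 and 0.869 CPM in differentiating Kat6a+/+ and 0.816, 1.36, 0.298 and 0.893 in differentiating Kat6a-/- libraries. The call of H2bc21 lay at the threshold, and it was made in 20 of 33 settings. In contrast, 21 of 24 S phase genes had a larger fall in differentiating Kat6a-/- NSPCs by the same test.

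Altogether 41 members were tested in at least 1 comparison and 26 in none. The latter were H1f1 among H1 genes, H2ac1, H2ac10, H2ac11, H2ac12, H2ac15, H2ac21 and H2ac22 among H2A genes, and H2bc14, H2bc15, H2bc18 and H2bc26 among H2B genes. They further included H3c1, H3c2, H3c3, H3c6, H3c7 and H3c11, and H4c1, H4c2, H4c3, H4c4, H4c6, H4c14, H4c16 and H4c17. No group mean of any of them exceeded 0.726 CPM, the highest being that of H2bc26. H2ac1, known as a testis gene, had 1 count in 24 libraries. H2bc26 was left out of the tests by its biotype and the others by low counts. Differences in these genes were therefore not tested.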

How the data were processed

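RNA of 24 NSPC cultures was sequenced, 4 for each of 3 genotypes in 2 conditions. The authors aligned the reads to mm39 with Rsubread, assigned them to RefSeq genes with featureCounts, and deposited raw counts per gene, one table for each library. How reads that fit several genes, or the strand, were handled is not given in the sources used here. From these counts, CPM were computed with TMM factors over all 24 libraries (edgeR 4.0.16, R 4.3.3), without log or prior count.

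Protein-coding genes that passed filterByExpr were fitted with limma 3.58.1 as in the methods of the study. Proliferating libraries were fitted with voom, treating litter as random (correlation 0.287 within litters), and differentiating libraries with limma-trend on log2 CPM (prior count 2) and library quality weights. Conditions and their interaction with genotype were fitted with voom in all libraries together, litter again being random (correlation 0.00365 within litters). The block thus had little effect there. The 6 embryo labels found in both conditions were not paired in this fit. P-values were adjusted by the method of Benjamini and Hochberg over all genes tested, and an FDR under 0.05 was called. Class sums include members below the filter and received no test. The scripts were tested on simulated data.

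Values by library were given for the 3 members of each class with the highest mean CPM, for some of them in part of the groups or as ranges. In each comparison the 3 largest called rises and falls and, in the interaction, the 5 smallest p-values were named. From other gene lists at most 4 genes of the highest level were named, apart from Slbp, H2ax and marker genes. The members and lists were chosen with earlier results of these data known. The alternatives were DESeq2 1.42.0 and edgeR tests, other scaling, no filter, all biotypes, prior count 0.5, no weights, litter as a fixed term or no litter block, embryo as the block, a replicate block and leaving out each library. No 2 libraries of a group agreed within sampling noise (lowest chi-square per degree of freedom 5.55).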

Additional observations from a re-analysis of the deposited data

Results flagged for a closer look

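In 126 groups of 4 libraries, for 15 named genes and 6 sums, 6 single libraries stood apart from the other 3 of their group by Dixon’s criterion, of which chance alone gives about 1 in 20 groups. H4c9 read 8.9 CPM in proliferating Kat6a+/+ replicate 1, against 10.9 to 11.2 in the others, and 10.9 CPM in differentiating Kat6a-/- replicate 1, against 6.39 to 7.02. H4c8 had a count of 0 in proliferating Kat6a+/+ replicate 4, against 0.178 to 0.199 CPM, which lie under the 0.375 CPM that 3 counts come to in that library. H3c15 read 0.0991 CPM in proliferating Kat6a+/+ replicate 3, against 0.448 to 0.5. H2ac19 read 1.54 CPM in proliferating Kat6a+/- replicate 4, against 0.792 to 0.89. H2ac18 read 7.36 CPM in proliferating Kat6a-/- replicate 4, against 2.41 to 3.23, in the library that also had the lowest S phase sum of its condition.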

How the results depend on the processing

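The counts of called members were recomputed under each alternative. In Kat6a+/+ differentiating vs. proliferating NSPCs 25 to 29 members were called in every setting, against 28. No member was called in Kat6a+/- NSPCs in any setting. In proliferating Kat6a-/- NSPCs, against 4, there were 8 without the filter (2 higher, 6 lower), 1 with litter as a fixed term and 2 with the replicate block, and 0 to 5 when single libraries were left out. In differentiating Kat6a-/- NSPCs, against 8, there were 5 by edgeR, 5 without quality weights and 0 with litter as a fixed term, and 2 to 16 when single libraries were left out. In the interaction, against 0, there was 1 with DESeq2 size factors, with library totals alone and with all biotypes, and 2 by edgeR and by DESeq2, and 0 to 2 with a library left out. The share of all genes called in each setting is not given here, so these counts cannot be read against it. The cause of the changes in the counts was not tested. Named members were followed if called in the main fit or, in the interaction, if named by p-value. Of 951 such values, 825 kept their direction and side of the threshold, 103 lost and 23 gained a call, and 0 reversed. Other members not called in the main fit were left out, so that a gain could be counted only in the interaction. Many settings left out a library of a group outside the comparison. Those could move a call only through scaling, the filter and shared estimates of spread. The tallies of settings, here and above, may therefore overstate the stability of the calls. With DESeq2 size factors and with library totals alone, all class sums moved by less than 1 SD. Leaving out 1 of 4 libraries cannot move a mean by 1 SD, so that those settings could not show a change of that size.

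Same-numbered libraries did not come from the same embryo or litter throughout, and correlations of their deviations ran from −0.52 to 0.56, so the numbers do not pair them. With the replicate block 9 members were called in differentiating Kat6a-/- NSPCs, 26 between the conditions and 0 in the interaction. Low counts limit the family, with 50 members under 1 CPM, and reads shared by near-identical copies limit statements on single genes.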
